A study of Mus musculus with 6 samples.

Results

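Proximal B cell receptor signalling genes were followed in leukaemic mouse B cells with and without gamma-catenin. The set was a fixed list of 9 genes, Cd79a, Cd79b, Lyn, Blk, Syk, Btk, Blnk, Plcg2 and Pik3ap1, each read from its probe set with exactly 1 gene symbol and the highest mean. Of these, 8 were measured this way among 19938 genes on the array, each by 1 probe set, and Lyn was not analysed here. All 8 passed the filter on dim probe sets that served as an alternative setting.

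The samples were 3 KO (Jup-/-) and 3 WT (Jup+/+) on the C57BL/6 background, each on 1 array. Jup encodes gamma-catenin, also called plakoglobin, a junction protein related to beta-catenin. In both groups, chimeras had been made from fetal liver cells of CD45.2+ embryos in CD45.1+ hosts, and their marrow was transduced with a retrovirus that carries BCR-ABL1, the kinase of Philadelphia chromosome-positive leukaemia, and GFP. At day 21 in irradiated CD45.1+ recipients, GFP+ B220+ BP-1+ CD45.2+ cells were sorted from the marrow, so both groups carry BCR-ABL1 and are labelled as differing in the Jup genotype of the donor cells. The labels give neither the age of the animals nor whether a sample pools several.

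The receptor on a B cell has no enzyme of its own. CD79A and CD79B carry its signalling motifs, which SRC family kinases such as LYN and BLK phosphorylate, and SYK then binds there. SYK phosphorylates the adaptor BLNK, which brings BTK to PLCG2, the phospholipase that releases calcium and activates protein kinase C, while the adaptor PIK3AP1, also called BCAP, recruits phosphoinositide 3-kinase. In pre-B cells the same proteins serve the pre-B cell receptor, an immunoglobulin mu heavy chain with a surrogate light chain. SYK, BTK, PLCG2 and PIK3AP1 also act in myeloid cells.

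The promoters of Pik3ap1 and Syk, which separated the groups, and of Cd79a, which did not, show what lies upstream of each start. The RefSeq-derived table of build GRCm38.p6 matched 6 of the 9 genes in 7 windows. The 250 bases before the start are printed 5′ to 3′ on the gene's strand, for Pik3ap1 (chr19:41385103-41385352, minus strand), the first of the Syk starts in the table (chr13:52583187-52583436, plus strand) and Cd79a (chr7:24897247-24897496, plus strand). Capitals mark matches to the motifs searched on both strands, the E-box CAGGTG, the ETS motif CAGGAAGT and the forkhead motif TGTTTAC, none of which overlapped here.
Pik3ap1: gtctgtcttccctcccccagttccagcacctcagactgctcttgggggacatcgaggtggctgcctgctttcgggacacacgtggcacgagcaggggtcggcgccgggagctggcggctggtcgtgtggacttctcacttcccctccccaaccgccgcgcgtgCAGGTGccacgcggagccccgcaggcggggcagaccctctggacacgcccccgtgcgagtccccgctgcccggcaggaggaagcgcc
Syk: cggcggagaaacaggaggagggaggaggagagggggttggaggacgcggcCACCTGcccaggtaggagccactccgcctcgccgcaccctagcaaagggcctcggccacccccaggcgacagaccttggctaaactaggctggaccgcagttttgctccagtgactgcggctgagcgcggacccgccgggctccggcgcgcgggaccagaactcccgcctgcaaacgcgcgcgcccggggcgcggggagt
Cd79a: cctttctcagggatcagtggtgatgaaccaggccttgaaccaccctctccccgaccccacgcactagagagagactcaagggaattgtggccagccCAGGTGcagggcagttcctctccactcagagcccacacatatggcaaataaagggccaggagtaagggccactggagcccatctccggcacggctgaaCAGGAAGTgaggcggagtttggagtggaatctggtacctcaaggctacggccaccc

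The E-box, the motif of E proteins such as E2A, was in 6 of the 7 windows of these genes, that of Btk being without it, and in 17.2% of 32851 promoter windows of the same length. The ETS motif was in the windows of Cd79a and Blnk and in 2.69% of all. No window of these genes held the forkhead motif (3.17% of all). GC content was 71.2% for Pik3ap1, 71.6% for Syk and 58.8% for Cd79a. Blk, Cd79b and Lyn were not searched. Among the genes searched, an E-box was found for Pik3ap1 and Syk and also for Cd79a, Blnk and Plcg2, whose KO and WT arrays overlapped.

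The comparison of KO with WT asked how the receptor pathway of leukaemic B cells differs when gamma-catenin is lost. Pik3ap1, Blk and, by a narrow margin, Syk had higher values in every KO array than in every WT array, by 1.43-fold, 1.85-fold and 1.27-fold. Cd79a, Cd79b, Btk and Blnk had log2 differences of -0.03 to 0.06, and Plcg2 of 0.15. None of the 8 genes passed the threshold of an adjusted p of 0.05 (limma, Benjamini-Hochberg over 21789 probe sets), a threshold that 0.119% of all probe sets passed. Before adjustment, 3 of the 8 were higher and 0 lower at p under 0.05, against 4.48% of all probe sets higher and 4.73% lower. KO and WT did not overlap for 3 of the 8, all higher in KO, and for 5.94% of all probe sets in that direction and 8.08% in the other. The median log2 difference over the 8 was 0.11, with 7 of 8 above 0, and over all probe sets it was -0.02, with 44.2% above 0. The array's numbers do not set the level of a gene against that of another gene, so levels are compared within a gene only.

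**Figure D1:**
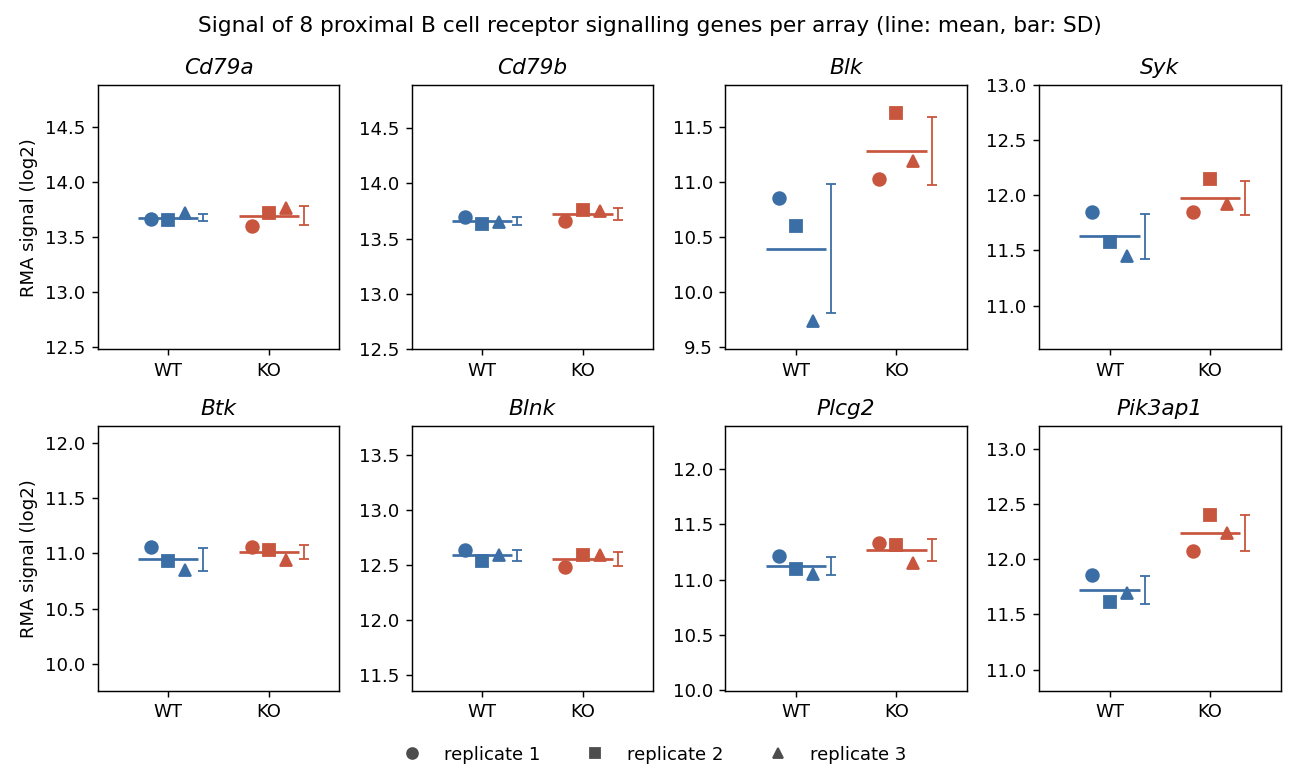
RMA signal on the log2 scale (y axis) of each measured gene in the WT and KO arrays (x axis). Points are arrays with the replicate number as their shape, horizontal lines are group means and bars SDs (n = 3), and every panel spans the same height in log2 units. Blk, Syk and Pik3ap1 show no overlap between KO and WT, and Cd79a, Cd79b, Btk, Blnk and Plcg2 do.

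The receptor's signalling subunits came first. Cd79a measured 13.60, 13.72 and 13.76 in KO replicates 1, 2 and 3 and 13.66, 13.65 and 13.72 in the WT replicates. The KO values enclosed all WT values, and the log2 difference was 0.02 (SE 0.08, 95% interval -0.16 to 0.19, adjusted p = 0.973). Its sign turned to -0.015 without KO replicate 3. Cd79b measured 13.66, 13.76 and 13.75 in KO and 13.70, 13.63 and 13.65 in WT, so that 2 KO arrays were above all WT arrays and the other was among them. Its log2 difference was 0.06 (SE 0.07, 95% interval -0.10 to 0.23, adjusted p = 0.874). Both probe sets lay at the 99.8th percentile of mean signal among all probe sets tested, and how far the arrays still resolve differences at such brightness was not tested.

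Blk, the SRC family kinase largely restricted to B cells, had the largest difference of the 8 and the widest spread. It measured 11.03, 11.63 and 11.20 in KO (mean 11.28 ± 0.31, SD, n = 3) and 10.86, 10.60 and 9.74 in WT (mean 10.40 ± 0.59, SD, n = 3). WT replicate 3 was the lowest array and KO replicate 2 the highest. The log2 difference was 0.89 (SE 0.27, 95% interval 0.26 to 1.51), at an unadjusted p of 0.0113 and an adjusted p of 0.360 in limma. With a trended and robust prior the unadjusted limma p was 0.0548. The difference was 0.56 without WT replicate 3 and 1.12 without WT replicate 1.

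Syk, the kinase that binds the phosphorylated receptor motifs, measured 11.85, 12.15 and 11.92 in KO (mean 11.98 ± 0.16, SD, n = 3). In WT it measured 11.85, 11.58 and 11.45 (mean 11.63 ± 0.20, SD, n = 3). The groups were only narrowly separate, since KO replicate 1 was at 11.8522 and WT replicate 1 at 11.8517, and the other KO arrays stood above the other WT arrays. With each array centred on its median the separation was lost, since KO replicate 1 was then at 4.30 and WT replicate 1 at 4.33. The log2 difference was 0.35 (SE 0.12, 95% interval 0.07 to 0.63), with an unadjusted p of 0.0214 and an adjusted p of 0.434 in limma. The unadjusted limma p was 0.0811 when KO replicate 2 was left out, and 0.0577 and 0.0781 when WT replicates 2 and 3 were.

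Btk, the TEC family kinase that activates PLCG2, measured 11.06, 11.03 and 10.94 in KO and 11.06, 10.93 and 10.85 in WT. The groups overlapped over most of their range, with a log2 difference of 0.06 (SE 0.08, 95% interval -0.13 to 0.26, adjusted p = 0.899). Btk lies on the X chromosome, and donor sex was uneven between the arrays. The X-inactivation RNA Xist was at 6.20 in WT replicate 2 and between 13.03 and 13.38 in the other arrays, and the Y-linked Eif2s3y was at 8.90 in that array and between 3.52 and 3.98 in the others. Btk in WT replicate 2 was between the other WT arrays, and without that array its log2 difference was 0.06.

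Of the adaptors, Pik3ap1 had arrays without overlap and Blnk did not. Pik3ap1 measured 12.07, 12.41 and 12.24 in KO (mean 12.24 ± 0.17, SD, n = 3) and 11.86, 11.61 and 11.69 in WT (mean 11.72 ± 0.13, SD, n = 3). The lowest KO array was 0.21 above the highest WT array. The log2 difference was 0.52 (SE 0.11, 95% interval 0.27 to 0.77), the lowest unadjusted p of the 8 at 0.00117, with an adjusted p of 0.166 in limma. It passed in 1 alternative, with arrays weighted by their quality, where the difference was 0.60 and the limma adjusted p 0.0414. The share of all probe sets that passed in that setting is not given here. The weights also lowered the limma adjusted p of Cd79a to 0.833 and of Btk to 0.567, and raised that of Blnk to 0.998. With an array left out in turn the difference of Pik3ap1 lay between 0.44 and 0.60, and its limma adjusted p between 0.101 and 0.518.

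Blnk, the scaffold on which BTK and PLCG2 meet, measured 12.49, 12.59 and 12.59 in KO and 12.63, 12.54 and 12.59 in WT. KO replicate 1 was the lowest array and WT replicate 1 the highest. Its log2 difference was -0.03 (SE 0.07, 95% interval -0.20 to 0.14, adjusted p = 0.953), and the sign turned to 0.012 with a further quantile normalization, 0.00064 with array weights and 0.0054 without KO replicate 1. Plcg2 measured 11.33, 11.32 and 11.15 in KO and 11.21, 11.10 and 11.05 in WT, where only KO replicate 3 fell below a WT array. Its log2 difference was 0.15 (SE 0.09, 95% interval -0.05 to 0.34, adjusted p = 0.679).

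**Figure D2:**
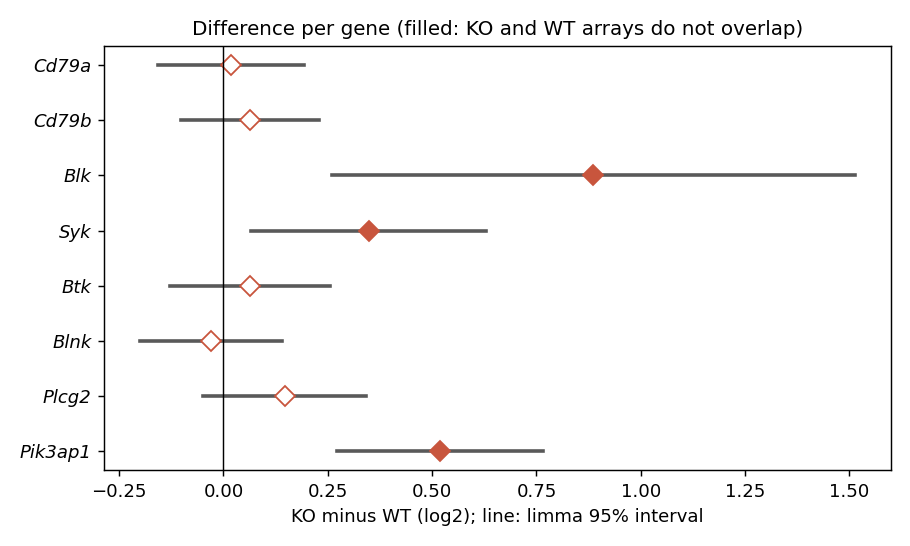
Log2 difference, KO minus WT (x axis), of each measured gene with its 95% interval from limma (line). Filled points mark genes whose KO and WT arrays do not overlap; the intervals of Blk, Syk and Pik3ap1 lie above 0 and the other 5 include 0, before any adjustment for the number of probe sets.

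How these genes ranked the arrays was uneven. KO replicate 2 was the highest of the 6 arrays for 4 of the 8 genes and WT replicate 3 the lowest for 4. WT replicate 1 lay nearest to the KO arrays, with 7 of its 8 genes above the WT mean, against 1 in each other WT array. Without WT replicate 1, Cd79b, Blk, Syk, Btk, Plcg2 and Pik3ap1 did not overlap between the groups, 6 of 8 genes, where 14.5% of all probe sets were higher in KO without overlap. Without KO replicate 1 they were Cd79a, Cd79b, Blk, Syk and Pik3ap1, against 11.5% of all probe sets. Fewer arrays make such separation more common. Blk, Syk and Pik3ap1 stayed without overlap whichever array was left out. That was fixed in advance, since they did not overlap with all 6 arrays, so it does not test their separation.

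**Figure D3:**
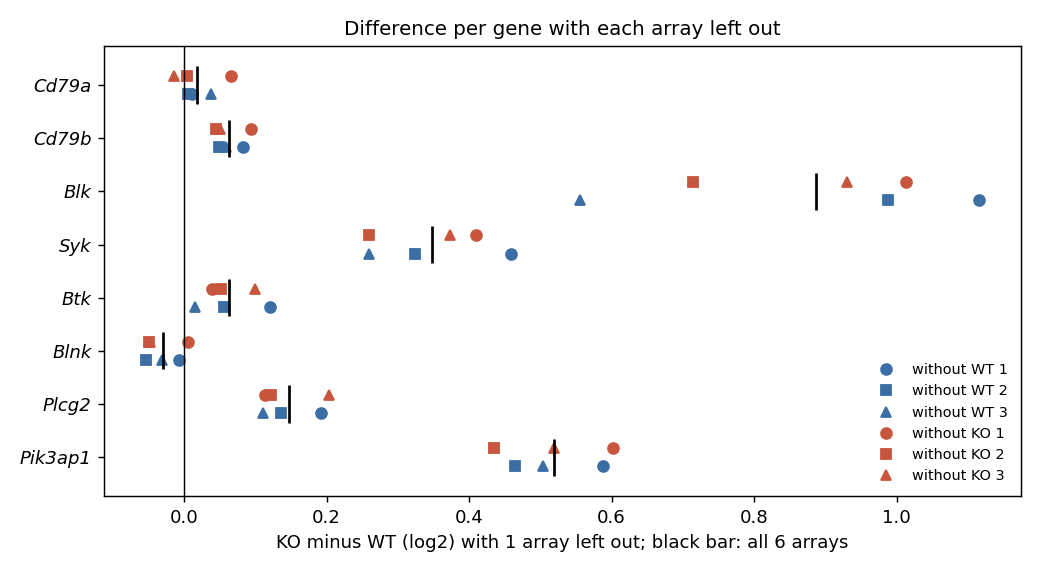
Log2 difference, KO minus WT (x axis), of each measured gene when 1 array is left out, with colour for the genotype and shape for the replicate of that array; black bars give the value with all 6 arrays. Blk ranges from 0.56 without WT replicate 3 to 1.12 without WT replicate 1, Pik3ap1 stays between 0.44 and 0.60, and only Cd79a and Blnk cross 0.

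Markers of other cells moved with genotype as well. Of 21 measured myeloid markers 17 were higher in KO, 3 of them past the adjusted threshold (Mpo, Elane and Ctsg), which 0.119% of all probe sets passed. The mean level of the list was 8.30 to 8.37 in the KO arrays and 7.62 to 8.05 in the WT arrays. Mpo, the peroxidase of neutrophil granules, was at 9.17, 9.04 and 9.38 in KO and 7.44, 7.58 and 7.76 in WT (limma adjusted p = 0.00512), and the lowest of the list were Csf1r at -0.11 and Cd14 at -0.15. Within WT the myeloid list and the receptor genes did not rank the arrays alike. WT replicate 1 had the lowest myeloid mean (7.62) and the highest mean deviation of the 8 genes (0.14). WT replicate 2 had the highest myeloid mean (8.05) and a deviation of -0.01. The part of myeloid RNA in the differences of Syk, Pik3ap1 and Plcg2 was not tested. In such bulk samples, more cells of a type and more RNA per cell cannot be told apart.

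All 12 measured mature B cell markers were higher in KO, as were 44.2% of all probe sets. Of them 5 were without overlap, against 5.94% of all probe sets, and 0 past the adjusted threshold. The list mean was 8.90 to 9.21 in KO and 8.48 to 8.80 in WT. Differences were as small as 0.02 for H2-Ab1 and 0.04 for Cr2. Cr2 and Fcer2a, 1 of the 5, did not pass the filter on dim probe sets, and Cd22, another of the 5, is also among the inhibitory receptors below. Ms4a1, which encodes CD20, gave 1.29 (SE 0.28, limma adjusted p = 0.178). Like the receptor genes, this list was highest in KO replicate 2 and, within WT, in replicate 1. That ranking was not particular to it. The pro-B and pre-B cell markers and, below, the receptor chains, inhibitory receptors and other adaptors had the same top arrays. Of 14 pro-B and pre-B cell markers 10 were higher and 4 lower, with means of 11.48 to 11.67 in KO and 11.40 to 11.46 in WT, and Rag2 had their highest moderated statistic at 0.42 (SE 0.10, limma adjusted p = 0.260). The B-lineage factor genes Ebf1 (13.22 in KO and 13.17 in WT) and Pax5 (12.37 and 12.10) and the sort marker Enpep (12.36 and 12.59) were bright in both groups. Enpep had the lowest moderated statistic of the 14, at -0.23 (SE 0.09, limma unadjusted p = 0.0376), and did not pass the adjusted threshold. Its KO arrays all lay below its WT arrays, narrowly, with KO replicate 1 at 12.5359 and WT replicate 3 at 12.5421. Of the 14, 2 were higher in KO without overlap and 1 lower.

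The lists of T and NK, erythroid and plasma cells had medians of 0.02, -0.002 and -0.19. Of 12 T and NK cell markers 6 were higher and 6 lower, with Nkg7 at 0.49 and Klrb1c at -0.79 as the extremes and Cd3e, a chain of the T cell receptor complex, at 7.31 in KO and 7.34 in WT. Of 7 erythroid markers 3 were higher, with Car1 past the threshold (0.74, SE 0.09, limma adjusted p = 0.0307) and Car2 lowest at -0.38. Of 6 plasma cell markers 4 were lower, from Xbp1 at -0.28 to Irf4 at 0.27, a gene that pre-B cells also use.

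**Figure D4:**
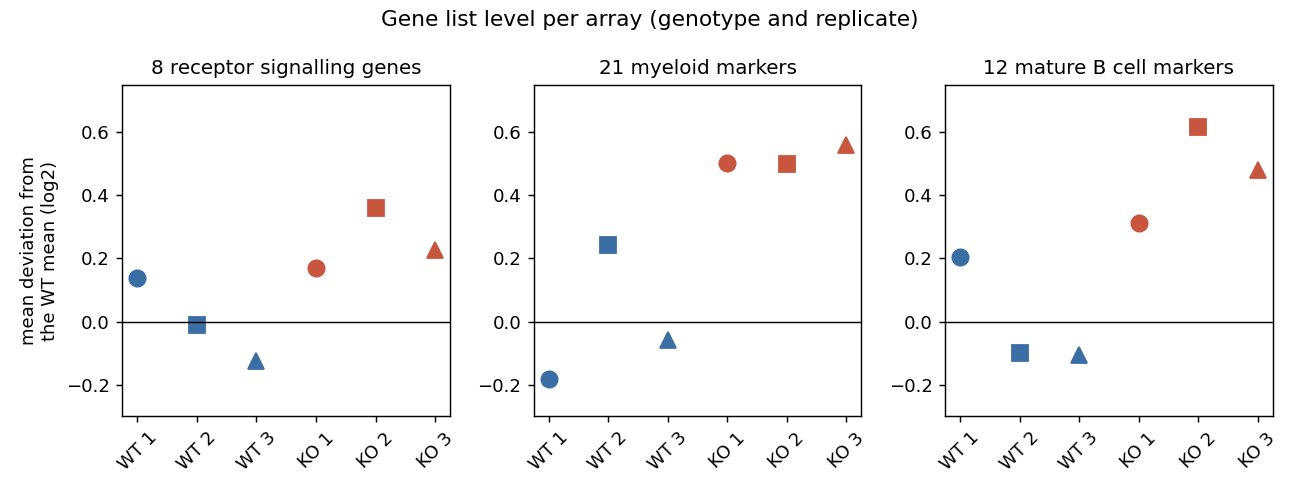
Mean deviation of a list's genes from their WT means on the log2 scale (y axis) in each array (x axis: genotype and replicate) for the 8 receptor signalling genes, 21 myeloid markers and 12 mature B cell markers. In WT replicate 1 the receptor genes (0.14) and mature B cell markers (0.20) are high for WT while the myeloid markers (-0.18) are low.

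The wider receptor pathway was read from 6 lists that leave out the 9 genes. These lists, and the cell type lists above, were chosen with earlier results of these data known. Their counts are therefore a description and no independent support for a difference. Of 104 listed genes 91 were measured, and 0 passed the adjusted threshold in limma. Before adjustment, 16 were higher in KO and 1 lower at p under 0.05, against 4.48% and 4.73% of all probe sets. Without overlap, 20 were higher and 6 lower, against 5.94% and 8.08% of all probe sets. The median log2 difference of the 91 was 0.06, against -0.02 over all probe sets. The genes named are the 3 of each list with the lowest p, and others chosen after their values were seen. Those are Igll1, Vpreb1, Vpreb2, Fcrl1, Fgr, Bmx, Txk, Pik3cd and Pik3r1.

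Receptor chains and the co-receptor split by component. Ighm, the mu heavy chain of the pre-B cell receptor, gave 0.90 (SE 0.25, unadjusted p = 0.00713, limma adjusted p = 0.318), measured at 10.19, 10.72 and 10.18 in KO and 10.02, 9.40 and 8.97 in WT. As with Blk, WT replicate 3 was lowest and KO replicate 2 highest. Vpreb3 gave 0.06, and the surrogate light chain genes Igll1, Vpreb1 and Vpreb2 gave -0.01, -0.03 and -0.03. Cd81, a tetraspanin of the B cell surface, gave -0.13 with all KO arrays below WT. Of the 8 measured genes 4 were higher and 4 lower, with a median of 0.01.

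The list of inhibitory receptors had the highest median of the 6 lists, 0.31, with 9 of 11 higher. It was drawn broadly, since it also holds the Fc receptor-like genes Fcrla and Fcrl1, which are not inhibitory receptors in the strict sense. Cd72 measured 10.49, 11.58 and 11.31 in KO and 9.81, 9.76 and 9.42 in WT, which differed by 1.46 (SE 0.25, limma adjusted p = 0.106). Cd22 measured 9.20, 9.94 and 9.67 in KO and 8.73, 8.01 and 8.24 in WT, a difference of 1.28 (SE 0.22, limma adjusted p = 0.106). Fcrla, an intracellular Fc receptor-like protein of B cells, gave 0.94 (SE 0.25, limma adjusted p = 0.280). In all 5 were higher and 0 lower at p under 0.05 before adjustment, against 4.48% and 4.73% of all probe sets. Fcrla and Fcrl1 (0.56, SE 0.22) are among these 5, and the median without them is not given here. CD72 and CD22 both recruit the phosphatase encoded by Ptpn6.

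Phosphatases, ubiquitin ligases and other brakes went both ways, with 12 of 16 higher and a median of 0.10. Ptprj, a receptor phosphatase that acts on SRC family kinases, measured 11.66, 12.06 and 11.92 in KO and 11.43, 11.21 and 11.14 in WT, a difference of 0.62 (SE 0.12, limma adjusted p = 0.139). Ptpn22, a phosphatase that turns SRC and SYK family kinases off, was the 1 pathway gene lower at an unadjusted p under 0.05, at 9.63, 8.85 and 9.24 in KO and 10.04, 10.07 and 10.19 in WT. Its difference was -0.86 (SE 0.17, limma unadjusted p = 0.000952), and all KO arrays were below all WT arrays. Dok3, an adaptor that dampens receptor signalling, gave 0.51 (SE 0.11, limma adjusted p = 0.192).

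Other SRC, SYK and TEC family kinases overlapped between KO and WT. Of 8 measured, 0 were without overlap, against 5.94% of all probe sets higher and 8.08% lower. At an unadjusted p under 0.05 there were 0, against 4.48% and 4.73%, and the median was 0.05. The lowest p belonged to Src at -0.21 (SE 0.10), Tec at 0.20 (SE 0.14) and Yes1 at -0.09 (SE 0.08). Yes1, Fgr, Bmx and Txk did not pass the filter on dim probe sets, and RMA compresses changes of dim transcripts. Whether Blk differs from the other kinases in its response was not tested.

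Other adaptors and PI3K subunits had a median of 0.04, with 16 of 25 higher. Stap1, an adaptor that TEC phosphorylates, gave 0.33 (SE 0.11) and Lat2, a membrane adaptor, 0.45 (SE 0.17), both without overlap at unadjusted p of 0.0148 and 0.0258. Vav2, a guanine nucleotide exchange factor, gave 0.25 (SE 0.12). The PI3K subunits Pik3cd and Pik3r1, the partners of PIK3AP1, gave 0.07 and 0.02.

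Second messenger and downstream genes had a median of -0.01, with 11 of 23 higher. Itpr2, a calcium release channel opened by the product of PLCG2, measured 10.82, 10.69 and 10.42 in KO and 10.07, 10.02 and 9.89 in WT, a difference of 0.65 (SE 0.11, limma adjusted p = 0.106). Ppp3ca, a catalytic subunit of calcineurin, gave 0.48 (SE 0.09, limma adjusted p = 0.136) and Prkcb, a protein kinase C of B cells, 0.34 (SE 0.10, limma adjusted p = 0.357). Before adjustment, 5 of the 23 had p under 0.05, all higher, against 4.48% of all probe sets higher.

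**Figure D5:**
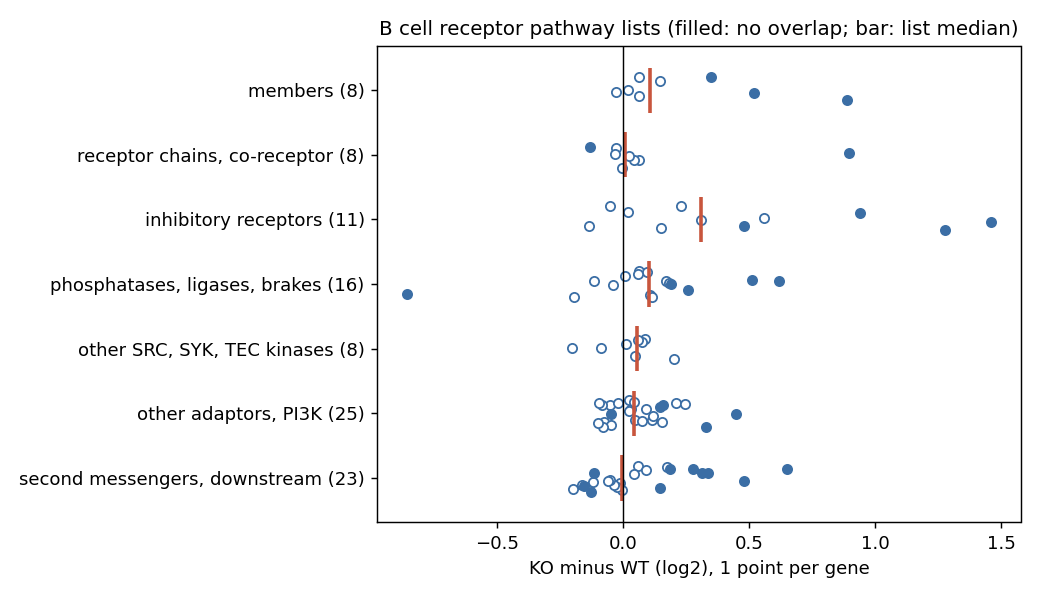
Log2 difference, KO minus WT (x axis), of each measured gene of the 8 proximal genes and of the 6 pathway lists (y axis, number measured in brackets). Filled points have no overlap between KO and WT and red bars are list medians. The inhibitory receptor list, which includes Fcrla and Fcrl1, has the highest median (0.31), led by Cd72 and Cd22. Ptpn22 is the point furthest below 0.

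The profile over the 6 arrays most like that of Pik3ap1, by the root mean square difference of mean-centred log2 values, belonged to Dok3 at 0.036 among 10526 probe sets above the median signal. Next were Lipe (0.049), Flt3l (0.054), Inpp4a (0.054) and Ccng2 (0.055). Dok3 measured 10.68, 11.04 and 10.87 in KO and 10.52, 10.29 and 10.26 in WT. In all 5 the KO arrays lay above the WT arrays and KO replicate 2 was highest, and their log2 differences ran from 0.47 to 0.55. Lipe encodes hormone-sensitive lipase, Flt3l a cytokine ligand, Inpp4a a phosphatase of phosphoinositides and Ccng2 an unconventional cyclin, and these genes were chosen for their likeness alone.

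The series as a whole served as a check. Jup itself measured 7.04, 7.06 and 7.27 in KO and 8.04, 7.62 and 8.51 in WT, lower in every KO array (KO minus WT -0.93, SE 0.20, limma adjusted p = 0.171). The labels do not say which part of the gene is missing, so this checks them in part. Array medians over the tested probe sets were 7.53 to 7.61. Precision is limited by the number of arrays, 3 a group.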

How the data were processed

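The deposited values are 1-colour Affymetrix signals on the log2 scale, which the authors made with RMA; the submitters' processing notes name Affymetrix Expression Console 1.1, and neither RMA's options nor the annotation build are stated in the labels. RMA in its usual form equalises the arrays' distributions, so a shift common to all genes is lost, and it compresses changes of dim transcripts.

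Of 35556 rows, 21789 had 1 gene symbol in the platform annotation, 1621 had several and 12146 were unnamed here. The genotypes were compared in limma 3.58.1 (R 4.3.3, lmFit and eBayes) on all 21789, with no covariate, and p-values were adjusted by Benjamini-Hochberg. The fit was tested on simulated data. Genes and lists were chosen with earlier results of these data known. Each gene of a list entered by its brightest probe set; the text names all members, the 3 lowest p-values of each pathway list, the extremes and defining genes of each cell type list, and some list genes chosen after their values were seen. The labels do not say that the replicate numbers pair animals, so the numbers were not taken as pairs and the block was an alternative. Same-numbered KO and WT arrays had deviations correlated at 0.10, -0.004 and 0.27, and differently numbered ones at -0.25 to 0.13. These values do not settle whether the arrays were paired. Labels call the samples biological replicates. Sequences are from RefSeq, GRCm38.p6.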

Additional observations from a re-analysis of the deposited data

How the results depend on the processing

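Alternatives changed the arrays (weights, each left out), the scaling (quantile normalization again, median centring), the prior (trended and robust), the rows (those under the 40th percentile of mean signal dropped, unnamed ones added, probe sets of a gene averaged or reduced to 1), the threshold (0.1) and the replicate block. The number of receptor genes past the adjusted threshold was 0 in all of these but the array weights, where it was 1 (Pik3ap1). The share of all probe sets past it with array weights is not given here. The number without overlap was 5 after the quantile normalization, 2 after median centring and 3 to 6 with an array left out. Over all probe sets, 5.3% were higher in KO without overlap after median centring and 7.89% to 14.5% with an array left out. The share after the quantile normalization is not given here, so its count of 5 cannot be set against one. The number was 3 under the other settings that give it, which leave the values of these genes unchanged and so could not alter it. With an array left out, 2 to 3 of the receptor genes had an unadjusted limma p under 0.05, as did 2 with the trended and robust prior. The shares of all probe sets at that p in these settings, and with the replicate block below, are not given here. The median difference was 0.085 to 0.156 with an array left out. Differences that changed sign were those of Blnk (0.00064 with array weights, 0.012 after quantile normalization, 0.0054 without KO replicate 1) and Cd79a (-0.015 without KO replicate 3); the cause was not tested. With an array left out, Blnk ranged from -0.054 to 0.0054 and Cd79a from -0.015 to 0.066. With the replicate block, 0 of the receptor genes passed, 3 had an unadjusted p under 0.05, and no call on a receptor gene changed. Over the series it gave 8 probe sets higher and 11 lower past the adjusted threshold, against 11 and 15 without it.

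With 3 arrays a group, a difference as small as those of Cd79a, Cd79b, Btk and Blnk was not detectable here.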
